A study of Drosophila melanogaster with 24 samples.

Results

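The genes described here encode subunits of voltage and calcium gated potassium channels of the fruit fly: *Sh*, *Shab*, *Shal*, *Shaw*, *slo*, *eag*, *sei*, *KCNQ*, *SK* and *Hk*. The product of *Hk* is a β subunit that binds a channel and is not itself a channel, but it is counted among the potassium channel genes below. They were found by exact gene name in both deposited tables, and all 10 were present among 17637 listed genes. Expression was measured by RNA-seq in heads of *Drosophila melanogaster* females of the strain w[1118], which carries an allele of the eye colour gene *white* and no other named allele in the labels. Old flies were 55 days old and young flies were 5 days old, and both ages were kept on the same diet in light-dark cycles. Heads were collected at 6 times of day, given as Zeitgeber time (ZT, the hour counted from lights on) 0, 4, 8, 12, 16 and 20. Each age and time has 2 libraries, which gave 12 old and 12 young libraries. Lights went off at ZT 12.

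Potassium channels let potassium leave the cell, which brings the membrane back to rest after an action potential and sets how readily a neuron fires again. The voltage gated members open on depolarization, whereas the calcium gated members open when calcium rises inside the cell and so couple calcium entry to membrane potential. Several of these genes are known in flies from mutants that shake their legs under ether, seize at high temperature or sleep little, and the currents they carry have been recorded in fly neurons, photoreceptors and muscles.

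Expression is given in FPKM, a level of fragments corrected for transcript length and for the size of the library, so levels of different genes can be compared. The sources used here do not state how libraries were made comparable, within or between the deposited old and young tables. All 24 libraries were therefore brought to a common scale by their median ratio over 9159 genes, and levels below are scaled FPKM unless stated otherwise. The log2 scaling factors averaged 0.22 higher in old than in young libraries. Within a day they spanned 0.20 in old and 0.19 in young libraries, with the highest at ZT 0 and the lowest at ZT 12 in each case. Sequencing depth is unknown, since read numbers cannot be had from FPKM, and precision rests on the spread between libraries. Heads hold neurons, glia, photoreceptors, muscle and fat body, and in such bulk samples fewer cells of a type and less RNA per cell cannot be told apart. The labelled tissue matched its markers: summed levels of 9 photoreceptor genes were 13138 to 19161 FPKM in old and 18141 to 21656 FPKM in young libraries.

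The 10 genes are spread over the X chromosome and arms 2L, 2R, 3L and 3R. In the Ensembl annotation of BDGP6, the assembly also called dm6, *Sh* (FBgn0003380) spans X:17924307-18063247 on the minus strand with 17 transcripts. *SK* (FBgn0029761) lies at X:5340236-5405138 on the plus strand, *eag* (FBgn0000535) at X:14955477-15009989 on the plus strand and *Hk* (FBgn0263220) at X:10233347-10263485 on the minus strand. On arm 3L, *Shab* (FBgn0262593) spans 2895017-2959579 on the plus strand and *Shal* (FBgn0005564) spans 19566851-19584568 on the minus strand. *Shaw* (FBgn0003386) lies at 2L:3718185-3729145 and *slo* (FBgn0003429), with 23 transcripts, at 3R:24662491-24711595, both on the plus strand. *sei* (FBgn0003353) lies at 2R:24047411-24053035 on the plus strand, and *KCNQ* (FBgn0033494) at 2R:10145897-10192394 on the minus strand. Exons of *sei*, *KCNQ* and *Hk* overlap exons of genes on the opposite strand, and although the libraries were stranded, whether the counting used strand is not stated, so levels of these 3 genes may include reads of their neighbours. The reads were aligned with a largest allowed intron of 10000 bases. Longer introns are annotated in *Sh* (9 of 32), *SK* (6 of 26), *Shab* (2 of 25), *eag* (2 of 23), *Hk* (2 of 20) and *KCNQ* (1 of 26), so reads across those junctions may be missing at both ages. *Shal*, *Shaw*, *slo* and *sei* have none.

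The first question was how strongly each gene was expressed in heads. The order of the mean levels was the same at both ages: *Sh*, *slo*, *Hk*, *SK*, *Shab*, *Shal*, *eag*, *Shaw*, *sei* and *KCNQ*. *Sh*, the Shaker subunit of fast inactivating A-type channels, was the most abundant, at 153 ± 18.3 FPKM in old and 242 ± 22.7 FPKM in young heads (mean ± SD, n = 12 libraries each, here and below). *KCNQ*, a Kv7 class subunit whose mammalian relatives carry the slow M-type current, was the least abundant. Summed over the 10 genes the level was 600 ± 40.9 FPKM in old and 934 ± 71.9 FPKM in young heads, and *Sh* made up 25.5% of that sum in old and 25.9% in young heads. Some neighbours in the order were not separated in every library. *Shab* was below *SK* in 12 of 12 old libraries, but in 7 of 12 young libraries. *Shaw* was below *eag* in 8 of 12 old and 7 of 12 young libraries, and *SK* was below *Hk* in 9 of 12 old and 11 of 12 young libraries. *eag* was below *Shal* in 10 of 12 old libraries, and *Hk* was below *slo* in 10 of 12 young libraries. All other neighbours kept their order in 12 of 12 libraries of the age.

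The second question was whether levels differed with age over all times of day. After median-ratio scaling, 9 of the 10 genes were lower in old heads and *KCNQ* was not called, but relative to pan-neuronal markers only *Shal* and *Shab* were called lower: *Sh*, *Hk*, *eag*, *Shaw* and *SK* were no longer called, and *slo* and *sei* turned to higher values. Of the 12 pan-neuronal markers themselves, 11 were lower in old heads after median-ratio scaling (median log2 difference -0.53, lowest -1.09, highest 0.21). The threshold was a limma adjusted *P* value of 0.01 (moderated test on log2(FPKM + 1), Benjamini-Hochberg over 9564 genes with a mean of at least 1 FPKM). The 12 libraries of an age were treated as independent. Those of the same replicate cycle may share a cohort of flies, in which case the *P* values are too small. Of all genes tested, 21.1% were called lower and 20.2% higher in old heads, 41.3% in either direction. The median log2 difference, old minus young, was -0.60 over the 10 genes and 0.02 over all genes tested. Fold changes on the log2(FPKM + 1) scale understate the change of low genes slightly.

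*Shal* and *Shab* had the lowest log2 differences of the 10 genes, and which of them was lower changed when a replicate cycle was left out. *Shal* encodes a Kv4 class subunit that carries A-type current in cell bodies and dendrites. Its lowest, median and highest levels were 20.6, 26.2 and 29.3 FPKM in old heads, against 44.9, 51.5 and 53.1 FPKM in young heads. The highest old library was thus well below the lowest young one. The log2 difference was -0.95 ± 0.046 (SE), a level of 0.519 times that in young heads, with a limma adjusted *P* value of 1.47e-14.

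*Shab*, a Kv2 class subunit and the main source of delayed rectifier current in many fly neurons, was at 46.7, 59.3 and 73.7 FPKM (lowest, median, highest) in old heads and at 85.7, 114 and 136 FPKM in young heads. The groups did not overlap. The log2 difference was -0.91 ± 0.075 (limma adjusted *P* = 2.10e-10), or 0.532 times the young level.

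*Sh* was at 134, 147 and 200 FPKM (lowest, median, highest) in old heads and at 213, 239 and 289 FPKM in young heads. Its highest old value came from 1 ZT 16 library, and its highest young value from 1 ZT 12 library. The groups stayed apart even so, with a log2 difference of -0.66 ± 0.061 (limma adjusted *P* = 1.85e-09), which became -0.10 and was not called (limma adjusted *P* = 0.0549) relative to pan-neuronal markers. *Hk* encodes Hyperkinetic, the cytoplasmic β subunit that binds Shaker channels and alters their gating. *Hk* levels were 71.0, 93.0 and 109 FPKM in old heads, against 118, 152 and 168 FPKM in young heads, and no old library reached the lowest young one. Its log2 difference of -0.69 ± 0.071 (limma adjusted *P* = 9.15e-09) became -0.13 and was not called (limma adjusted *P* = 0.0388) relative to pan-neuronal markers.

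*Shaw*, the Kv3 class member, was at 16.5, 19.7 and 25.7 FPKM (lowest, median, highest) in old heads, against 27.1, 29.5 and 42.6 FPKM in young heads. Old and young libraries did not overlap, but the gap between them was narrow. The log2 difference was -0.59 ± 0.066 (limma adjusted *P* = 3.84e-08), and it became -0.05, not called (limma adjusted *P* = 0.452), relative to pan-neuronal markers.

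The members of the ether-a-go-go group are *eag*, the founding member of the Kv10 class, and *sei*, the fly Erg channel whose loss makes flies seize when heated. *eag* was at 17.1, 22.3 and 25.2 FPKM (lowest, median, highest) in old heads and at 25.4, 33.4 and 40.4 FPKM in young heads. The highest old library lay just under the lowest young one. The log2 difference of *eag* was -0.61 ± 0.077 (limma adjusted *P* = 2.73e-07), and it became -0.07, not called (limma adjusted *P* = 0.469), relative to pan-neuronal markers. *sei* was at 14.1, 15.5 and 18.9 FPKM in old heads, against 17.9, 19.7 and 23.2 FPKM in young heads, and here the groups overlapped, with 1 old ZT 0 library above 2 of the young ones. Its log2 difference of -0.34 ± 0.047 (limma adjusted *P* = 1.36e-06) was the smallest of the 9 called, and it became 0.19 (limma adjusted *P* = 0.00921) with scaling to pan-neuronal markers.

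The calcium gated members are *slo*, which encodes the large conductance BK channel opened by calcium and voltage, and *SK*, the small conductance channel opened by calcium alone. *slo* was at 108, 125 and 138 FPKM (lowest, median, highest) in old heads, against 156, 170 and 202 FPKM in young heads. The groups did not overlap. Its log2 difference was -0.46 ± 0.048 (limma adjusted *P* = 1.20e-08), and it became 0.10 (limma adjusted *P* = 0.0288) with scaling to pan-neuronal markers. *SK* was at 65.1, 79.1 and 92.7 FPKM in old heads and at 98.5, 115 and 141 FPKM in young heads, again without overlap. Its log2 difference was -0.56 ± 0.062 (limma adjusted *P* = 3.50e-08). As for other members (values below), it depended on the replicate cycle: -0.36 without replicate 1 and -0.75 without replicate 2, called in both cases. Relative to pan-neuronal markers it was -0.00077 and not called (limma adjusted *P* = 0.991).

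*KCNQ* stood apart from the other 9 genes. Its lowest, median and highest levels were 8.63, 11.8 and 13.7 FPKM in old heads, against 9.84, 10.99 and 15.02 FPKM in young heads, so the groups overlapped almost completely. The means were 11.5 ± 1.69 FPKM in old and 11.4 ± 1.44 FPKM in young heads, and the log2 difference was 0.0058 ± 0.072 (limma adjusted *P* = 0.954). Each of the other scalings gave a higher *KCNQ* in old heads, by 0.21 on deposited values (limma adjusted *P* = 0.0272, not called) and by 0.52 relative to pan-neuronal markers (limma adjusted *P* = 2.35e-06).

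Counted by library, all 12 old libraries were below all 12 young libraries for 8 of the 10 genes, all but *sei* and *KCNQ*, beside 7.14% of all genes tested. Compared within each time of day, both old libraries were below both young libraries at all 6 times for 9 of the 10 genes, *sei* included, beside 13.6% of all genes tested. None of the 10 genes had all old libraries above all young ones (4.57% of all genes tested) or both above both at all 6 times (10.2%). *KCNQ* had both old libraries below both young ones at 2 times (ZT 4 and 20) and above them at 3 times (ZT 8, 12 and 16).

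**Figure D1:**
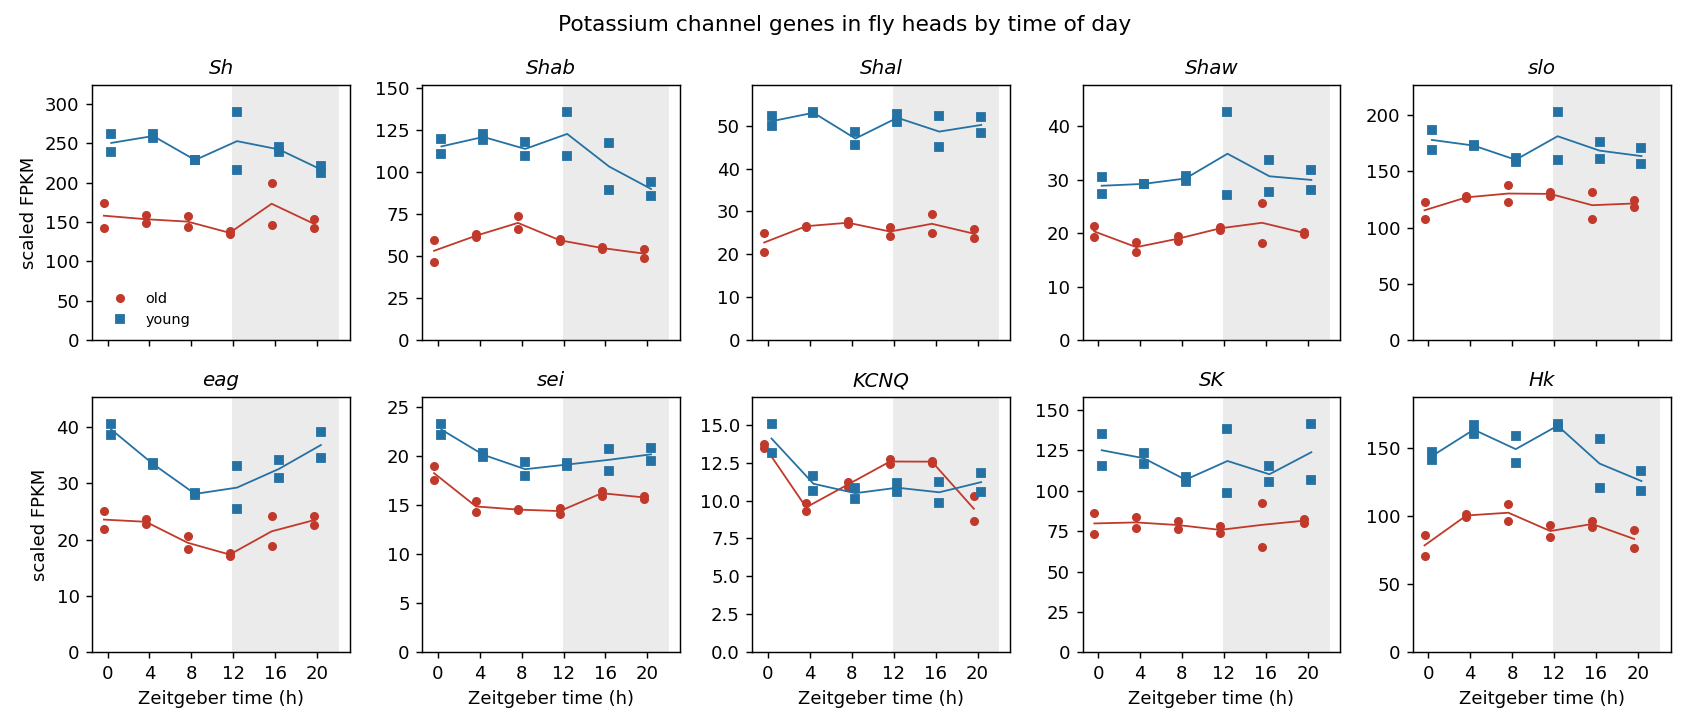
Level of each of the 10 genes (y axis, scaled FPKM, from 0) against Zeitgeber time (x axis, hours). Circles are old and squares young libraries, 2 per age and time, lines join their means and grey marks the dark phase except its last hours. Old libraries lie below young ones at every time for 9 genes on this scale (relative to pan-neuronal markers only *Shal* and *Shab* stay called lower), whereas the lines of *KCNQ* cross.

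Because how the tables relate in scale is not known, the same test was run on 3 scales. On the deposited values, 8 of the 10 genes were called, all lower in old heads, beside 54.3% of all genes called and 10.8% called lower, and *sei* was not (-0.13, limma adjusted *P* = 0.0903). There the log2 differences were -0.73 for *Shal*, -0.69 for *Shab*, -0.47 for *Hk*, -0.43 for *Sh*, -0.40 for *eag*, -0.38 for *Shaw*, -0.34 for *SK* and -0.24 for *slo*, and the values of *Sh*, *eag*, *Shaw*, *SK* and *slo* were smaller than after median-ratio scaling by a factor of more than 1.5. Relative to the mean of 12 pan-neuronal markers, 4 of the 10 genes were called: *Shal* (-0.40, limma adjusted *P* = 9.34e-07) and *Shab* (-0.35, limma adjusted *P* = 1.42e-06) were lower, and *sei* and *KCNQ* were higher, in old heads. Of all genes tested on that scale, 77% were called, 3.28% lower and 73.8% higher, so calls were less frequent among the 10 genes than among all genes. *Sh*, *Hk*, *eag*, *Shaw*, *SK* and *slo* were not called there. The scales differ for all genes. The median log2 difference over all genes tested was 0.02, 0.22 and 0.51 on the median-ratio, deposited and pan-neuronal scales, and 51.0%, 19.8% and 4.25% of the calls on these scales were lower in old heads. A scale shifts all 10 genes by nearly the same amount, so *Shal* and *Shab* were lowest and *KCNQ* was highest on each of the 3.

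**Figure D2:**
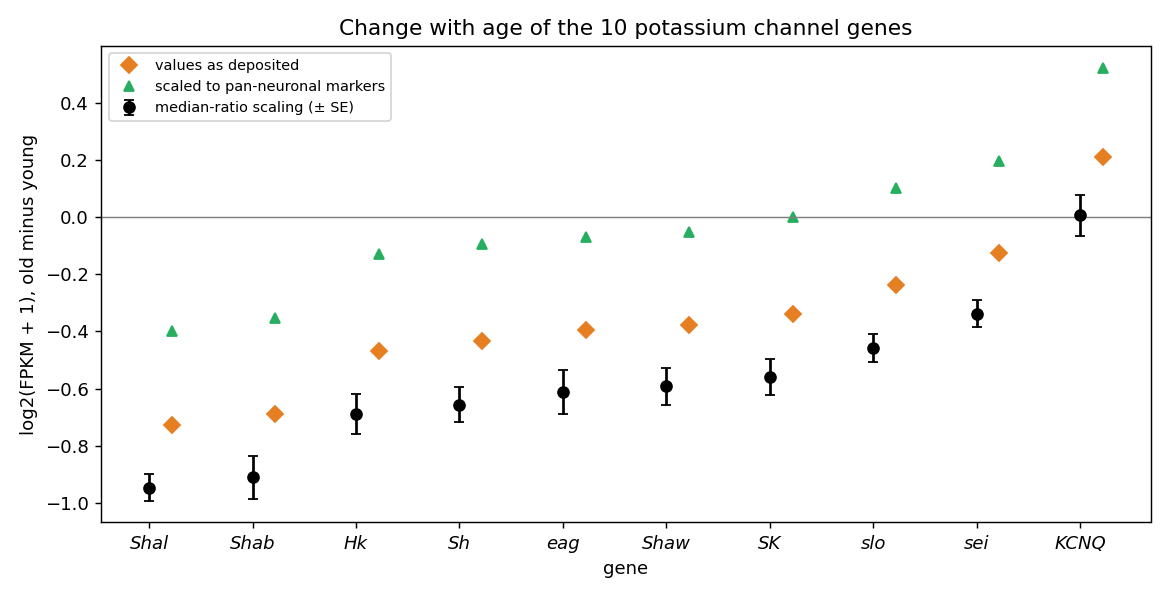
Log2 difference between old and young heads (y axis, log2(FPKM + 1), old minus young) of the 10 genes (x axis) after median-ratio scaling (circles, ± SE), on deposited values (diamonds) and relative to pan-neuronal markers (triangles). *Shal* and *Shab* are below 0 on all 3 scales, *slo* and *sei* are above 0 relative to pan-neuronal markers, and *KCNQ* is highest on each scale.

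The age difference was then followed through the day. For *Shal* the difference between the means of log2(scaled FPKM + 1) was -1.14 at ZT 0 and -0.76 at ZT 8, its largest and smallest values. For *Shab* the same times gave -1.11 and -0.70. *slo* varied between -0.62 at ZT 0 and -0.30 at ZT 8, and *sei* between -0.41 at ZT 4 and -0.26 at ZT 16. All 9 called genes were thus lower in old heads at each of the 6 times after median-ratio scaling, the scale on which *slo* and *sei* fell. *KCNQ* changed sign with time, with -0.04 at ZT 0, -0.20 at ZT 4, 0.07 at ZT 8, 0.20 at ZT 12, 0.24 at ZT 16 and -0.23 at ZT 20. Each of these values rests on 2 libraries per age, and no single time was tested.

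**Figure D3:**
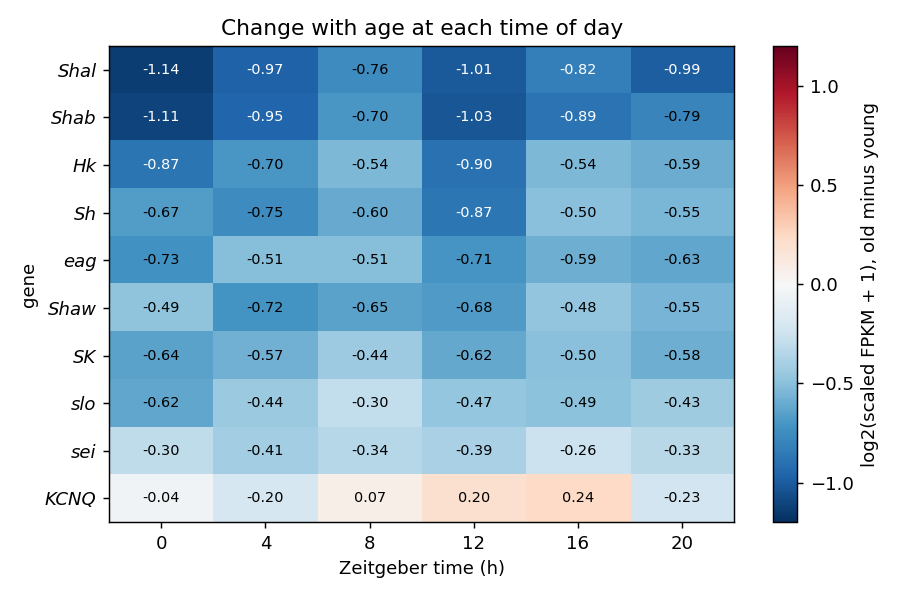
Difference between the old and young means of log2(scaled FPKM + 1) (colour and printed value, old minus young) of the 10 genes (rows) at each Zeitgeber time (columns, hours). After median-ratio scaling 9 genes are below 0 at all 6 times (over all times *slo* and *sei* are above 0 relative to pan-neuronal markers), and *KCNQ* ranges between -0.23 at ZT 20 and 0.24 at ZT 16.

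Libraries of the same age and time differed for several members at once. In old heads the second-cycle library was higher for 10, 9, 8, 8, 7 and 8 of the 10 genes at ZT 0, 4, 8, 12, 16 and 20. In young heads the first-cycle library was higher for 10, 6, 4, 7, 9 and 6 of them at the same times. No share over all genes is given beside these counts, so they do not show a shift particular to the 10 genes. At ZT 16 in old heads the second-cycle library was higher than the first for 7 of the 10 genes, among them *Sh* (200 and 146 FPKM), *SK* (92.7 and 65.1 FPKM) and *Shaw* (25.7 and 18.2 FPKM), and lower for *Shal*, *Hk* and *sei*. At ZT 12 in young heads the first-cycle library was higher than the second for 7 of the 10 genes, among them *Sh* (289 and 216 FPKM), *SK* (138 and 98.5 FPKM) and *Shaw* (42.6 and 27.1 FPKM), and lower for *Shal*, *Hk* and *KCNQ*. The pan-neuronal markers moved with the larger group in these pairs: on deposited values their mean log2 level, relative to the mean of all libraries, was -0.0066 in the second and -0.32 in the first ZT 16 library of old heads, and 0.29 in the first and 0.08 in the second ZT 12 library of young heads. The part of the markers in these differences was not tested. Leaving out any 1 of the 24 libraries left 9 genes called. The sizes varied more when a replicate cycle was left out. The smaller and larger log2 differences were then -0.51 and -0.80 for *Sh*, -0.78 and -1.04 for *Shab*, and -0.92 and -0.98 for *Shal*. They were -0.47 and -0.72 for *Shaw*, -0.34 and -0.58 for *slo*, and -0.47 and -0.75 for *eag*. For *sei* they were -0.30 and -0.38, and for *Hk* -0.59 and -0.79.

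The next question was whether the genes had a daily rhythm. Rhythms were tested within each age by fitting a 24 h wave (cosine and sine terms, limma F test), with an adjusted *P* value of 0.05 as the threshold, over the 9587 genes whose median reached 1 FPKM in old or young heads. In old heads *eag* and *Shab* were called, 2 of 10 genes beside 11.1% of all genes tested. In young heads *eag* alone was called, 1 of 10 beside 9.34%. Before adjustment, 3 of 10 genes in old heads (with *sei* added) and 2 of 10 in young heads (*eag* and *sei*) had *P* values up to 0.05, beside 29.9% and 27.8% of all genes tested. The median amplitude, the height of the fitted wave above its mean on the log2 scale, was 0.10 over the 10 genes and 0.14 over all genes in old heads, and 0.10 and 0.13 in young heads.

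*eag* was high around lights on and low around lights off at both ages. Its mean levels in old heads were 23.5, 23.2, 19.4, 17.3, 21.5 and 23.4 FPKM at ZT 0, 4, 8, 12, 16 and 20, against 39.5, 33.4, 28.1, 29.2, 32.5 and 36.8 FPKM at the same times in young heads. The fitted peak was at ZT 23.2 in old heads (amplitude 0.21, limma adjusted *P* = 0.0498) and at ZT 22.4 in young heads (amplitude 0.23, limma adjusted *P* = 0.0216). Both calls depended on single libraries: when 1 library was left out, *eag* stayed called in 3 of 12 fits in old and 7 of 12 fits in young heads. With time of day as a factor in place of a 24 h wave, its limma adjusted *P* value was 0.129 in old and 0.185 in young heads. The 24 h wave of *eag* was called on the other scales too, on deposited values (limma adjusted *P* = 0.0095 in old and 0.00294 in young heads) and relative to pan-neuronal markers (0.00895 in old and 0.000966 in young heads).

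*Shab* in old heads peaked in the day. Its mean levels were 53.1, 62.1, 69.7, 59.4, 54.8 and 51.5 FPKM at ZT 0 to 20, with a fitted peak at ZT 7.95 (amplitude 0.20, limma adjusted *P* = 0.0411). In young heads the means were 115, 121, 114, 123, 103 and 89.9 FPKM, the fitted peak was at ZT 6.99 and the wave was not called (amplitude 0.17, limma adjusted *P* = 0.204). The old call remained in 4 of 12 fits with 1 library left out, and was lost relative to pan-neuronal markers (amplitude 0.14, limma adjusted *P* = 0.212).

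*sei* was highest at ZT 0 at both ages: 17.6 and 18.9 FPKM in the old ZT 0 libraries and 23.2 and 22.2 FPKM in the young ones, above every other library of their age. Its wave was not called after median-ratio scaling (limma adjusted *P* = 0.126 in old and 0.175 in young heads), but was called on the deposited values (0.0341 in old and 0.0167 in young heads by the same limma test). On those values 1571 of 9613 genes were called in old and 1500 of 9613 in young heads. Deposited values keep the library factors, highest at ZT 0 and lowest at ZT 12, also for *eag* above and *KCNQ* below. The part of these factors in the waves was not tested. Relative to pan-neuronal markers the *sei* wave was called in young heads (amplitude 0.18, limma adjusted *P* = 0.0292) and not in old heads (limma adjusted *P* = 0.111). *Hk* had fitted peaks at ZT 8.69 in old and ZT 7.71 in young heads, with amplitudes of 0.15 and 0.16 that were not called (limma adjusted *P* = 0.213 and 0.197). *Sh*, *Shal*, *Shaw*, *slo* and *SK* had amplitudes between 0.039 and 0.12 in old heads and between 0.0060 and 0.091 in young heads, and none was called at either age.

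*KCNQ* in old heads did not follow a single wave. Its 2 libraries were 13.5 and 13.7 FPKM at ZT 0, 9.28 and 9.82 FPKM at ZT 4, 11.2 and 10.9 FPKM at ZT 8, 12.4 and 12.8 FPKM at ZT 12, 12.5 and 12.6 FPKM at ZT 16, and 10.3 and 8.63 FPKM at ZT 20. The levels were thus high at ZT 0 and again at ZT 12 and 16, with lows between. In young heads they were 15.02 and 13.2 FPKM at ZT 0 and between 9.84 and 11.8 FPKM in the other 10 libraries. With time of day as a factor *KCNQ* was called in old heads (range of the time means 0.49 on the log2 scale, limma adjusted *P* = 0.0275, beside 12.3% of all genes tested), and not in young heads (range 0.39, limma adjusted *P* = 0.238, beside 3.18%). No other of the 10 genes was called in that test at either age. The 24 h wave of *KCNQ* was not called in old heads (limma adjusted *P* = 0.773) or in young heads (0.204 by the same test), though on deposited values it was called in young heads (amplitude 0.22, limma adjusted *P* = 0.0388).

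A change of rhythm with age was tested directly, by the interaction between age and the 24 h wave. None of the 10 genes was called by limma, beside 0.344% of all genes tested, and 0 of 10 passed 0.05 before adjustment, beside 6.34%. The smallest adjusted *P* value was that of *KCNQ* (0.929, size of change 0.21 on the log2 scale). When time of day entered as a factor, the interaction of *KCNQ* had a limma adjusted *P* value of 0.396, again not called, and 0 of the 10 genes were called in that fit, beside 0.49% of all genes tested. A rhythm called at one age and not at the other, as for *Shab*, was therefore not shown to differ between ages.

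The neighbouring parts of the excitability machinery were counted in the same age test, with lists of genes matched by name. Of 13 other potassium channel genes tested, 8 were lower and 1 was higher in old heads, with a median log2 difference of -0.41 (0.10 relative to pan-neuronal markers). The 2-pore channel genes *Task6* (18.5 ± 2.88 FPKM in old and 34.5 ± 4.35 FPKM in young heads, log2 difference -0.87, limma adjusted *P* = 4.75e-10) and *Task7* (-0.51, limma adjusted *P* = 5.94e-09) were among those lower. The gene that was higher, named after its value was seen, was the inward rectifier *Irk1* (9.46 ± 1.68 FPKM in old and 6.58 ± 2.02 FPKM in young heads, log2 difference 0.49, limma adjusted *P* = 0.00116). Of 8 genes for regulators of these channels, 6 were lower, with a median of -0.55 (0.01 relative to pan-neuronal markers). Among them was *qvr*, whose product sleepless is an extracellular, membrane-anchored regulator of Shaker, at 192 ± 20.6 FPKM in old and 332 ± 35.9 FPKM in young heads (-0.79, limma adjusted *P* = 9.69e-11).

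Of 16 genes for sodium, calcium and other voltage gated channels and their subunits, 15 were lower in old heads, with a median of -0.67. *NaCP60E*, a channel of the sodium channel family, had a log2 difference of -1.11 (limma adjusted *P* = 6.75e-15), *unc79*, a subunit of the sodium leak channel complex, -0.78 (limma adjusted *P* = 5.57e-15) and *Ih*, the hyperpolarization activated cation channel, -0.75 (limma adjusted *P* = 1.01e-12). Of 4 genes of the sodium potassium pump, which maintains the gradients these channels use, 3 were lower, with *Atpalpha* at 508 ± 32.1 FPKM in old and 955 ± 76.4 FPKM in young heads (-0.91, limma adjusted *P* = 9.00e-14).

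Markers of cell types were counted in the same age test, and their lists differed in direction. Of 12 pan-neuronal markers, 11 were lower and 1 (*Rbp9*) was higher in old heads, with a median of -0.53 and a summed level of 1794 to 2407 FPKM in old and 3005 to 4117 FPKM in young libraries. They did not change alike: their log2 differences lay between -1.09 (*Syt1*) and 0.21 (*Rbp9*). Relative to their own mean, 3 of the 12 were still called lower and 4 higher (median 0.03). Of 6 glial markers, 3 were higher (*wrapper*, *Gli* and *moody*) and 1 was lower (*Eaat1*), with a median of 0.27 and summed levels of 1122 to 1969 FPKM in old and 1530 to 2176 FPKM in young libraries. Of 9 photoreceptor markers 6 were lower (median -0.31, or 0.25 relative to pan-neuronal markers), and *ninaE*, the main rhodopsin, was not called (-0.16, limma adjusted *P* = 0.132). Of 7 muscle markers 3 were lower (median -0.29, or 0.10 relative to pan-neuronal markers, summed levels 868 to 1242 FPKM in old and 1132 to 1578 FPKM in young libraries), and of 4 fat body markers tested 3 were lower (median -1.40). No marker was at 0 in all libraries. Relative to the pan-neuronal markers the median of the 10 potassium channel genes was -0.06. Beyond that comparison, the part of the markers in the age differences was not tested.

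These list counts also move with the scale. On deposited values the medians were -0.39 for the 10 genes, -0.23 for the other potassium channels, -0.33 for the regulators, -0.46 for the other voltage gated channels, -0.46 for the pump and -0.31 for the pan-neuronal markers. Relative to the pan-neuronal markers, the medians of the other potassium channels (0.10, with 1 of 12 lower and 5 higher) and the regulators (0.01, with 1 of 8 lower and 1 higher) were no longer below 0. The photoreceptor and muscle medians were above 0 on that scale too. Those of the other voltage gated channels (-0.12, with 7 of 16 lower and 2 higher) and of the pump (-0.12, with 2 of 4 lower and 1 higher) stayed below 0. The median of all genes tested on this scale, 0.51, was higher than each of these.

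**Figure D4:**
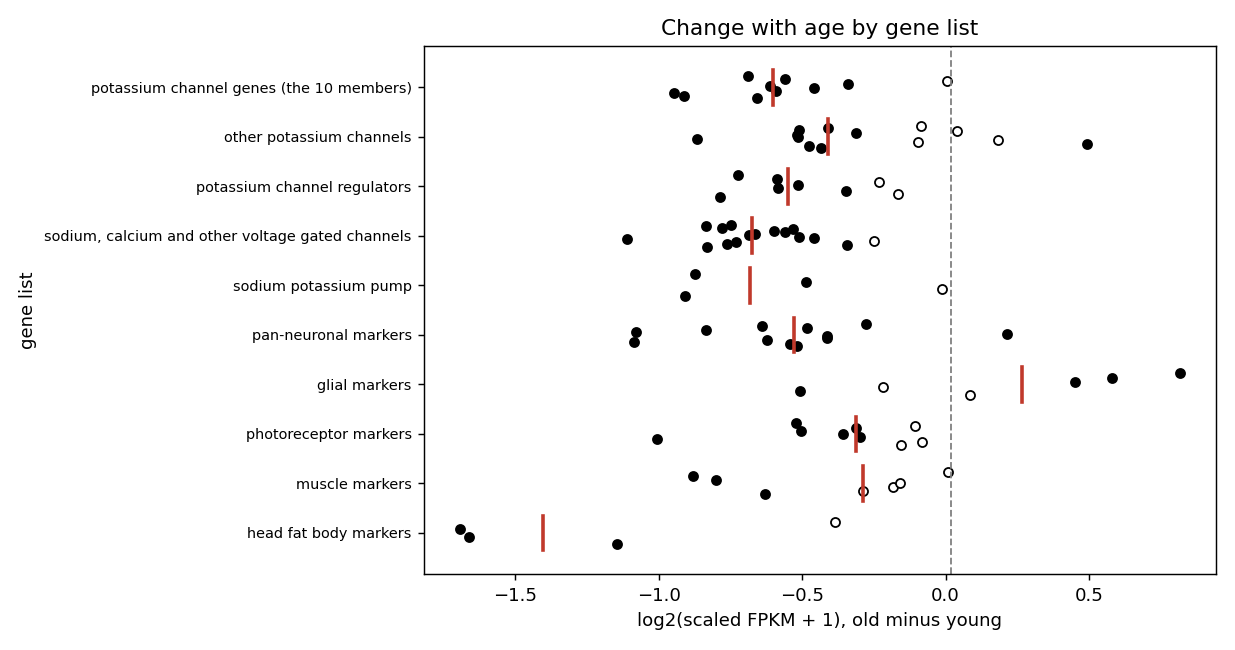
Log2 difference between old and young heads (x axis, log2(scaled FPKM + 1), old minus young, median-ratio scaling) of the genes of 10 lists (rows). Filled points were called at the limma threshold of 0.01, bars are list medians and the dashed line is the median of all genes tested (0.02). The 10 potassium channel genes (median -0.60) lie among the ion channel, pump and pan-neuronal lists, and the glial list (median 0.27) lies to the right; the lists of other potassium channels, regulators, photoreceptor and muscle markers have medians above 0 relative to pan-neuronal markers.

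Genes with a pattern like that of the family were ranked by Pearson's correlation, over the 24 libraries, with the mean standardized profile of the 10 genes. Of 5172 named genes, the 5 most alike were *Cbp53E* (r = 0.985), *qvr* (0.983), *mGluR* (0.980), *Mlf* (0.977) and *NaCP60E* (0.977), and 4.43% of the 5172 had an r over 0.9. The 24 points share the difference between the ages and their library scaling, so no *P* value is attached. *Cbp53E* encodes a calcium binding protein of neurons and was at 57.4 ± 5.67 FPKM in old and 125 ± 12.2 FPKM in young heads. *mGluR*, the metabotropic glutamate receptor, was at 36.7 ± 2.19 FPKM in old and 56.9 ± 4.66 FPKM in young heads. Among the members themselves the correlation with the mean profile, to which each contributes, was 0.970 for *Sh*, between 0.893 and 0.952 for the other 8 genes that were lower, and 0.149 for *KCNQ*.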

How the data were processed

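Heads of old and young w[1118] females were sequenced at 6 times of day, with 2 libraries at each age and time. Per the labels and the Methods, libraries were made with a stranded mRNA kit, and the authors trimmed the reads, aligned them with TopHat2 to BDGP6 (dm6) and computed FPKM values with Cuffdiff. The authors deposited these FPKM values in 2 tables of 17637 genes, 1 per age, each with columns of the ARSER rhythm analysis (*P* value, adjusted value, phase, period, amplitude and measures of fit), which were not used here. The depth of the libraries is unknown, as read numbers cannot be had from FPKM. Columns are headed by hour with no replicate number. The Methods lay the data out as a pair of daily cycles and the paper's captions call each cycle a separate biological replicate, so hours up to 20 were assigned to replicate cycle 1 and the rest to replicate cycle 2.

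Hairpins of microRNAs (235 genes) were left out, which left 17402 genes. Libraries were scaled by their median ratio over both tables before log2(FPKM + 1) was taken, with a pseudocount of 1, and this common scale is the only basis for levels set across the tables. limma 3.58.1 in R 4.3.3 (lmFit, eBayes with trend) was used for all tests, with Benjamini-Hochberg adjustment over all genes tested. The age test took the 12 libraries of an age as replicates, as in the Methods. Libraries of the same replicate cycle may come from the same cohort of flies and so may not be independent. The SE and *P* values may then be too small. Rhythms were tested at each age by a 24 h wave (cosine and sine terms), and their change by the interaction with age. Alternatives were the scaling, the pseudocount, filters on low values, thresholds, time of day as a factor, a replicate block, the prior variance without trend, and leaving out a replicate cycle or a library. The scalings combined with time of day as a factor were chosen after seeing the data. Each limma test was also tried on simulated data with known changes.

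All 10 members are named. Of each list, at most 4 called genes in order of the adjusted *P* value could be named, and the 5 genes most like the members by correlation were named among genes with a mean of at least 1 FPKM. *Irk1*, *Rbp9*, *ninaE* and *KCNQ* as a case of its own were singled out after their values were seen. The members and lists were chosen with earlier results of these data known. Names were matched exactly: 14 of 18 names of other potassium channels, 16 of 18 of other voltage gated channels and 5 of 6 of fat body markers were found, and all names of the other lists. A name that was not found does not show that the gene is absent, since it may be listed under another name or spelling. Coordinates are those of the Ensembl release 115 annotation, which is later than the FlyBase annotation the authors counted with. The figures were drawn with matplotlib 3.10.9 in Python 3.11.15.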

Additional observations from a re-analysis of the deposited data

How the results depend on the processing

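The count of 9 members called in the age test, all lower in old heads, held under the pseudocount of 0.1, no filter or a filter at 5 FPKM, the threshold of 0.05, both time terms, the prior variance without trend, and with each replicate cycle (9 to 9) or library (9 to 9) left out. It was 8 on deposited values and 4 relative to pan-neuronal markers, 2 lower (*Shal* and *Shab*) and 2 higher (*sei* and *KCNQ*), where *slo* (0.10) and *sei* (0.19) reversed, with or without time of day as a factor. With that factor, added after seeing the data, 10 members were called on deposited values, all lower but *KCNQ* (0.21), beside 6057 of 9569 genes. Relative to pan-neuronal markers 6 were called with it, beside 7775 of 9584 genes. Of these, *Sh*, *Shab* and *Shal* were lower and *slo*, *sei* and *KCNQ* were higher in old heads. The rhythm calls were less stable. In young heads 1 member was called, against 3 on deposited values, 2 relative to pan-neuronal markers, 0 with time of day as a factor, 2 without adjustment, 0 to 0 without either replicate cycle and 0 to 1 with 1 library left out. In old heads 2 members were called, against 3 on deposited values, 3 without adjustment, 1 relative to pan-neuronal markers, 1 with a pseudocount of 0.1, 0 without a filter, 1 with time of day as a factor, 1 with a maximum of at least 1.5 times the minimum, 0 to 0 without either replicate cycle and 0 to 2 with 1 library left out. Of all genes, the young test called 895 of 9587, against 1500 of 9613 on deposited values and 948 of 9689 relative to pan-neuronal markers. The old test called 1060 of 9587, 1571 of 9613 and 700 of 9689 on these scales. With the factor 3.18% of young and 12.3% of old tests were called, and without adjustment 27.8% and 29.9%. The old test called 1035 of 9587 with the pseudocount, 757 of 15334 without a filter and 920 of 9587 with the ratio. No alternative called a change of rhythm in a member. Fits without a replicate cycle have 1 library per age and time.

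Over all genes, the age test called 3946 genes, against 1992 without replicate 1, 2460 without replicate 2, 5194 on deposited values, 7383 relative to pan-neuronal markers, and, with time of day as a factor, 6057 and 7775 on these scales. The rhythm test called 895 genes in young heads, against 1500 on deposited values, 305 with the factor, 2664 without adjustment and 0 and 3 without a replicate cycle. In old heads it called 1060, against 700 relative to pan-neuronal markers, 2871 without adjustment and 0 without either cycle. The change of rhythm was called in 33 genes, against 8 relative to pan-neuronal markers, 608 without adjustment and 0 without either cycle. The causes were not tested.

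With the replicate cycle as a block, the members called were 9 for age, 1 for the young rhythm, 2 for the old rhythm and 0 for its change, with 3881, 795, 965 and 26 of all genes. Per the Methods, matching young and old samples were run together in a sequencing lane, but which libraries shared a lane is not given. The correlation between the first-cycle deviations of old and young libraries lay between -0.061 and 0.28 over the 6 times. Over all 66 pairs of groups it lay between -0.32 and 0.34. These ranges overlap, so whether cycles of old and young libraries are paired cannot be told.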

Other observations

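The makeup of the summed level of the 10 genes differed between the ages for some members, and these shares and ratios, which do not depend on the scaling of a library, were chosen after the values were seen and carry no test. *KCNQ* made up 1.92% ± 0.33 of the sum in old heads and 1.22% ± 0.15 in young heads (SD, n = 12 libraries each). The share of *slo* was 20.7% ± 1.07 in old and 18.3% ± 0.52 in young heads. *Shab* made up 9.73% ± 0.95 in old and 11.8% ± 0.97 in young heads, and *Shal* 4.28% ± 0.39 in old and 5.40% ± 0.38 in young heads. The level of *Hk* relative to *Sh*, the β subunit over the channel it binds, was 0.602 ± 0.084 in old and 0.614 ± 0.073 in young heads, within the spread between libraries. The ratio of *KCNQ* to *Shal* was 0.452 ± 0.093 in old and 0.226 ± 0.025 in young heads, and its lowest old value (0.333) was above its highest young value (0.288). The ratio of *sei* to *eag* was 0.740 ± 0.084 in old and 0.609 ± 0.058 in young heads, with overlapping ranges.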
